A study of Mus musculus with 6 samples.

Results

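The genes described here fold newly made secretory and membrane proteins in the endoplasmic reticulum (ER), clear the ones that fail to fold, or signal that folding is under strain. The list names 36 genes, and each had a probe set of its own on the array, so 36 of 19550 genes measured are covered and none was dropped. Members were taken by gene symbol, and the probe set of highest mean stood for a gene with several. All 36 lay above the filter on low values and were tested.

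The samples were livers of male mice on a C57BL/6NCrSlc background, 6 arrays in 3 groups of 2, and each array measured total RNA of homogenised liver on the Affymetrix mouse Gene 1.0 ST design. SMP30/GNL knockouts (SMP30/GNL KO) lack the gluconolactonase that mice need to make ascorbic acid (AA, vitamin C). One group of knockouts received the AA-deficient diet alone (AA-deficient KO), the next had drinking water that held AA, at a level meant to keep tissue AA normal, and EDTA as its stabiliser (AA-supplemented KO), and the last group was wild type on the vitamin C-deprived diet with water free of the vitamin. The same AA-deficient chow was thus common to every group. AA-deficient knockouts differed from wild type in genotype and in AA supply, which that comparison cannot tell apart. The knockout groups differed from each other in AA and EDTA together, which cannot be told apart either. AA-supplemented knockouts differed from wild type in genotype and in the AA of their water, and that comparison cannot separate the effects of these. Age, duration of deprivation and the deleted part of the gene were not given in the sources used here. Arrays of a group are called replicates, and no label says that they came from separate animals. The p-values set group differences against the scatter of arrays within groups. That scatter may be technical, so the p-values speak only for these samples. With 2 arrays a group, precision is limited throughout.

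Hepatocytes secrete most plasma proteins and keep a large ER. The unfolded protein response starts at 3 sensors in the ER membrane, the products of Ern1 (IRE1), Eif2ak3 (PERK) and Atf6. Activated IRE1 splices the messenger of Xbp1, whose product, like the cleaved Atf6 protein, switches on chaperones, folding enzymes and the machinery that moves proteins into and out of the ER. PERK slows translation and raises the factor Atf4, which acts on Ddit3 (CHOP) and on amino acid genes.

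Most ER genes, 28 of 36, had their lowest mean in AA-deficient knockouts. Against wild type the same number were lower, and 4 fell past the threshold (adjusted p under 0.05 in limma over all genes tested), namely the co-chaperone gene Dnajb11, the ER foldase gene Creld2, the secreted ER stress gene Manf and the transcription factor gene Xbp1. Across all 14662 genes tested 1.55% fell and 3.08% rose in that comparison, and 0 members rose. Most members were bright, and these genes were not matched to them in signal. With genes at or above the 50th percentile 10.8% of all genes passed in either direction, against 4.63%, and 9 of 35 members did. Against AA-supplemented knockouts 35 of 36 members were lower, but without AA-supplemented array 2 there were 28 lower and 8 higher. In that comparison 0 passed in limma in either direction (0.164% of all genes fell and 0.0409% rose). At an unadjusted p under 0.05, 8 were lower (4.54% of all genes) and 0 higher (5.38%). In AA-supplemented knockouts against wild type 23 were lower and 13 higher, and 0 passed in limma (0.00682% of all genes fell and 0% rose). There 3 were lower (3.84% of all genes) and 2 higher (6.78%) at an unadjusted p under 0.05. Values are in deposited log units, read as log10 from their range, and folds hold on that reading. In bulk RNA fewer cells of a type and less RNA per cell cannot be told apart.

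Dnajb11 encodes ERdj3, a partner of the chaperone BiP in the ER lumen. Its values were 1.232 and 1.223 in wild type, 1.153 and 1.020 in AA-supplemented knockouts, and 0.915 and 0.891 in AA-deficient knockouts. The groups did not overlap, and the 3 levels stood in steps, wild type highest. It fell by 0.32 from wild type to AA-deficient knockouts (SE 0.052, 2.11-fold lower, adjusted p = 0.0203 in limma). The difference of AA-supplemented knockouts from wild type was -0.14 (SE 0.052, adjusted p = 0.403), and that between the knockouts was -0.18 (SE 0.052, adjusted p = 0.268).

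Creld2 encodes a disulfide isomerase-like protein of the ER that is a common marker of ER stress. It stood at 1.777 and 1.667 in wild type, at 1.653 and 1.392 in AA-supplemented knockouts, and at 1.332 and 1.126 in AA-deficient knockouts. Of the 36 members it had the largest difference from wild type, and the groups again did not overlap, although the arrays within each knockout group lay far apart. In AA-deficient knockouts it fell 3.11-fold against wild type (difference -0.49, SE 0.096, adjusted p = 0.0348 in limma). Between the knockouts its difference was -0.29 (SE 0.096, adjusted p = 0.338), and this value moved from -0.16 without AA-supplemented array 1 to -0.42 without AA-supplemented array 2.

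Manf encodes a small secreted protein of the ER. Wild-type arrays gave 1.308 and 1.296, AA-supplemented arrays 1.262 and 1.143, and AA-deficient arrays 1.088 and 0.986. The wild-type arrays were close together and every knockout array lay below them. The AA-deficient knockouts had 1.84-fold less Manf than wild type (difference -0.27, SE 0.055, adjusted p = 0.0419 in limma).

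Xbp1 is the transcription factor of the IRE1 branch, and the single value per gene does not separate its spliced from its unspliced messenger. It was at 1.935 and 1.915 in wild type, at 1.923 and 1.861 in AA-supplemented knockouts, and at 1.748 and 1.679 in AA-deficient knockouts. Here the AA-supplemented arrays lay beside wild type, and the AA-deficient arrays alone were low. In AA-deficient knockouts Xbp1 fell 1.63-fold against wild type (difference -0.21, SE 0.045, adjusted p = 0.0445 in limma). Against AA-supplemented knockouts its difference was -0.18 (SE 0.045, unadjusted p = 0.00445 from limma), the smallest p of any member in that comparison, but with an adjusted p = 0.218 it did not pass. The difference between AA-supplemented knockouts and wild type was -0.033, with a 95% interval from -0.14 to 0.072.

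The count of 4 changed with single arrays. It was lower without any single wild-type or AA-deficient array and higher without either AA-supplemented array. Calls over all genes tested moved the same way, so this is not particular to the members. With single arrays left out, Dnajb11 lay between -0.34 and -0.31 in AA-deficient knockouts against wild type, and Creld2 between -0.60 and -0.39. Manf lay between -0.32 and -0.21, and Xbp1 between -0.25 and -0.18. With no filter on low values 0 members passed in limma (Dnajb11 at an adjusted p = 0.0517), against 0.885% of all genes. Xbp1 missed the threshold in limma after quantile normalisation (adjusted p = 0.0511) and cyclic loess (adjusted p = 0.0518), as Creld2 did with a trended and robust variance (adjusted p = 0.0696).

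**Figure D1:**
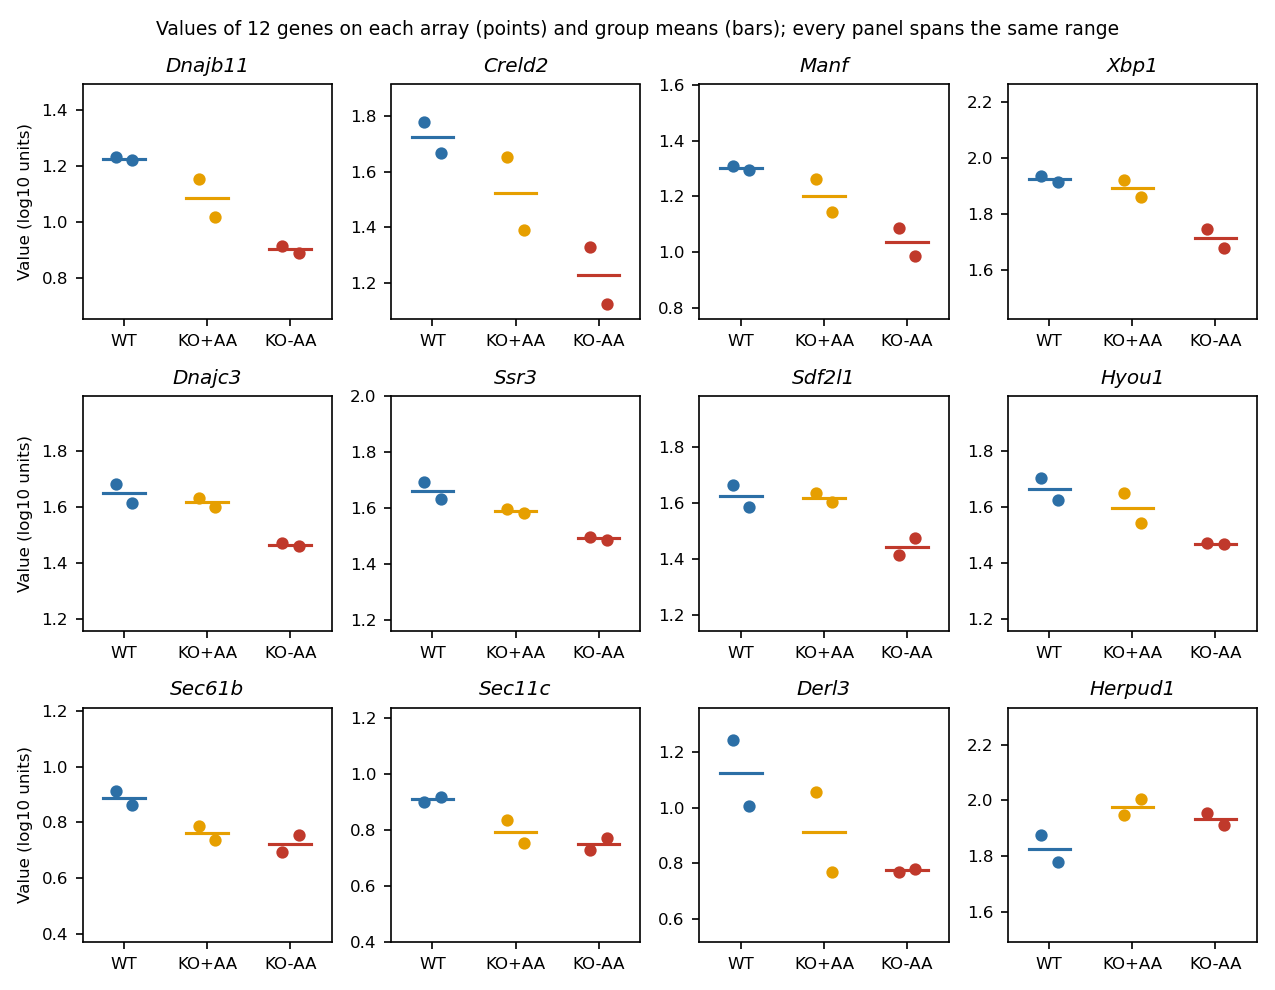
Deposited values (vertical axis, read as log10) of the 12 members with the smallest unadjusted p in any comparison, on each array (points) and as group means (bars); WT is wild type, KO+AA the AA-supplemented and KO-AA the AA-deficient knockouts, and every panel spans the same range. In Dnajb11 the means step down from 1.23 through 1.09 to 0.90, in Xbp1 the AA-deficient arrays alone are low, and in Herpud1 wild type is lowest.

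Genes of the unfolded protein response are known to share promoter elements, and the promoter windows of these members are shown because the genes that fell belong to that set. Of the 36 members, 29 matched a RefSeq promoter window (build GRCm38.p6), which runs from 250 bases before to 50 bases after an annotated start. The 7 others were Atf6, Hyou1, Manf, Derl1, Sec61a1, Sec11c and Ssr2. The ER stress response element (ERSE) was searched on both strands as CCAAT, a gap of 9 bases, and CCACG, and it is known as a site of NF-Y together with ATF6 or XBP1. It was found for 9 of 29 members, or 31.0%, against 0.137% of the 27025 genes in the table. ERSE-II, searched as ATTGG, 1 base and CCACG, was found for 2 members against 0.0444% of all genes. The unfolded protein response element, searched as TGACGTGG, was found for 0 members against 0.714% of genes. The parts alone are common, CCAAT in 41.1% and CCACG in 35.5% of all genes, and each was found for 24 of 29 members, sites within ERSE included. These elements are known from genes of this response, Hspa5 among them, so the shares describe the members and are not a test. A match is a run of letters and was not tested for binding here.

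The ERSE sites are printed below on the strand that reads CCAAT first, with the paired parts in capitals and positions in bases from the start of the gene.
Hspa5 (-65 to -47): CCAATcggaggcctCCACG
Calr (-162 to -144): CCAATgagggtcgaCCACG
Derl3 (-156 to -138): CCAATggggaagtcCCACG
Hsp90b1 (-212 to -194): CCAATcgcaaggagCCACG
Hsp90b1 (-107 to -89): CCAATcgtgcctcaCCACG
Canx (-145 to -127): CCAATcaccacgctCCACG
Pdia6 (-98 to -80): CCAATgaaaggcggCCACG
Dnajc3 (-105 to -87): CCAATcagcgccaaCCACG
Creld2 (-126 to -108): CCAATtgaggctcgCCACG
Syvn1 (-44 to -26): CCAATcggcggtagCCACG

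The ERSE-II sites follow, with the paired parts in capitals.
Herpud1 (-52 to -42): ATTGGgCCACG
Dnajb11 (8 to 18): ATTGGcCCACG

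The members with an ERSE did not share one pattern of values in AA-deficient knockouts against wild type. Creld2, with the site on the opposite strand, fell past the threshold, and Derl3 was at -0.35 against wild type. Dnajc3, Hspa5, Syvn1, Pdia6 and Hsp90b1 had differences between -0.18 and -0.086 in AA-deficient knockouts against wild type, while Calr was at -0.028 and Canx at 0.049. Of the ERSE-II genes, Dnajb11 fell and Herpud1 was at 0.10. The paired parts thus occurred in members at both ends of the range in that comparison. Between the knockouts every member with a paired element was lower, from -0.29 for Creld2 to -0.025 for Canx. There 35 of all 36 members were lower, so this was not particular to them.

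The whole windows of 3 members that fell are printed with that of Hspa5, whose promoter is the usual reference for the element, with ERSE or ERSE-II in capitals. Each is read 5′ to 3′ on the strand of its gene in RefSeq build GRCm38.p6.
Creld2, chr15:88819396-88819695, plus strand: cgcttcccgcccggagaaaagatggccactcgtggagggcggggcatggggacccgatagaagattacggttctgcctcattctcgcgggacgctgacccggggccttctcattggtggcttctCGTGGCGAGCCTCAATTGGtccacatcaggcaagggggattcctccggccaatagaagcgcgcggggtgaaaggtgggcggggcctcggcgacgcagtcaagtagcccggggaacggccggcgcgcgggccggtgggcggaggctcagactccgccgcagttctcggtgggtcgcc
Dnajb11, chr16:22857595-22857894, plus strand: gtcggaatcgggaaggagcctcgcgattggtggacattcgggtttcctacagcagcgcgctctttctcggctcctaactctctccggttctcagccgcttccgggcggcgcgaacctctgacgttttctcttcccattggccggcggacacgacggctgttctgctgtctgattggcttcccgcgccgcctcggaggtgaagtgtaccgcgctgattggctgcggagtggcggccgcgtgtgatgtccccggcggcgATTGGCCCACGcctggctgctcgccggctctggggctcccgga
Hspa5, chr2:34771840-34772139, plus strand: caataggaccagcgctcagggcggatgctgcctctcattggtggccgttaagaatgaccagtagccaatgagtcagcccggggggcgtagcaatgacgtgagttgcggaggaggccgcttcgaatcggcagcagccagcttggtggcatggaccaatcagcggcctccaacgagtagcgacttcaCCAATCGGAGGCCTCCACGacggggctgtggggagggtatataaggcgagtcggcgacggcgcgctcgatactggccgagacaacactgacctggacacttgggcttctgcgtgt
Xbp1, chr11:5520391-5520690, plus strand: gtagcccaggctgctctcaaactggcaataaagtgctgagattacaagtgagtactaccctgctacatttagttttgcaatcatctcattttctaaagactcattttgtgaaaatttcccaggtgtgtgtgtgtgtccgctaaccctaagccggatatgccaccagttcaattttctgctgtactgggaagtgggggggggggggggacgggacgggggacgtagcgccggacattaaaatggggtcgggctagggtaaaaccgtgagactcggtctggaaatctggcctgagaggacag

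The Xbp1 window held 0 matches to the motifs searched, CCAAT and CCACG included, which says only that these letters are not in this window.

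**Figure D2:**
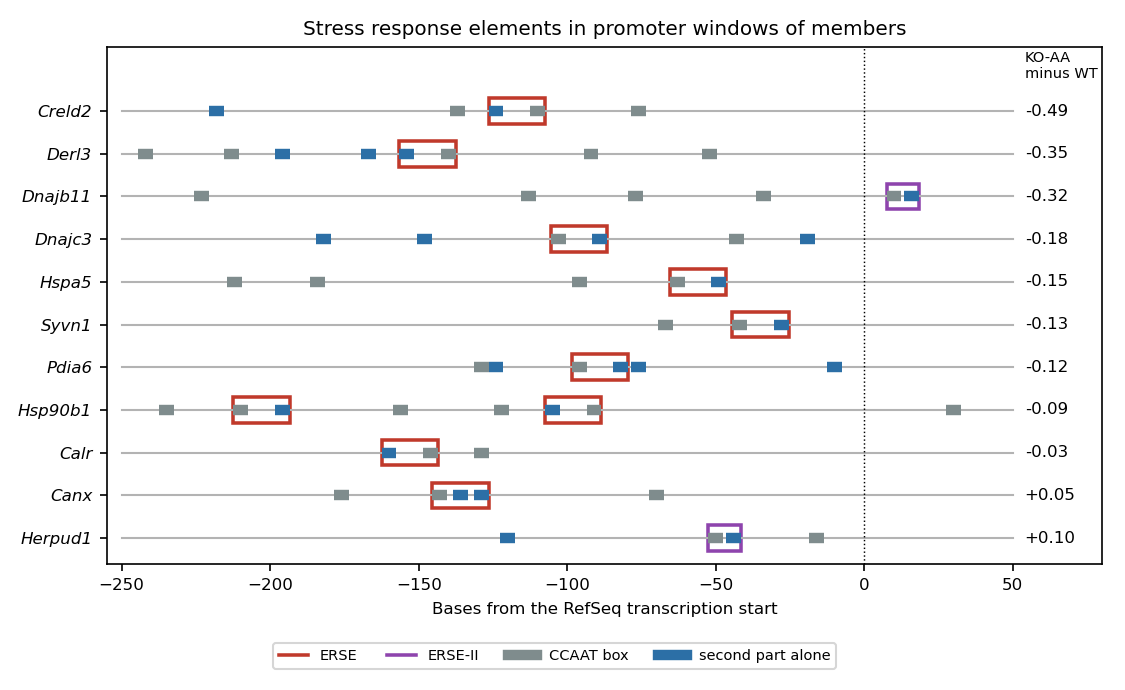
Positions of ERSE (red boxes), ERSE-II (purple boxes), CCAAT (grey) and CCACG (blue) in the promoter windows of the 11 members that hold a paired element, in bases from the RefSeq start (horizontal axis), ordered by the difference of AA-deficient knockouts from wild type printed at the right. Creld2 at -0.49 and Herpud1 at 0.10 both carry a paired element.

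Among the chaperones and their co-chaperones, 11 members, each had a lower mean without AA than with it among the knockouts (median difference -0.15), and 6 were lower at an unadjusted p under 0.05 (4.54% of all genes). Against wild type 10 of 11 were lower with a median of -0.18, against a median of -0.0034 over all genes tested. Dnajb11, Creld2 and Manf are the 3 that fell, and Canx was the exception in sign. From here on a difference given without its comparison is that of AA-deficient knockouts from wild type.

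Dnajc3 encodes P58IPK, a co-chaperone that also restrains PERK. Its values were 1.684 and 1.613 in wild type, 1.633 and 1.599 in AA-supplemented knockouts, and 1.470 and 1.461 in AA-deficient knockouts. The AA-deficient arrays lay below the other 4, which overlapped. Its difference was -0.18 against wild type (SE 0.043, adjusted p = 0.0558 in limma) and -0.15 against AA-supplemented knockouts (SE 0.043, adjusted p = 0.278), so that neither passed.

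Sdf2l1, which encodes a component of the ER chaperone complex, gave a like picture. Wild type was at 1.667 and 1.586, AA-supplemented knockouts at 1.637 and 1.604, and AA-deficient knockouts at 1.415 and 1.477. The low arrays were again the AA-deficient ones. The differences of the AA-deficient knockouts were -0.18 (SE 0.047, adjusted p = 0.0723) from wild type and -0.17 (SE 0.047, adjusted p = 0.243) from AA-supplemented knockouts.

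Hyou1 encodes the large ER chaperone GRP170, a nucleotide exchange factor of BiP. It read 1.704 and 1.624 in wild type, 1.651 and 1.541 in AA-supplemented knockouts, and 1.470 and 1.468 in AA-deficient knockouts. The AA-deficient arrays were lowest, and the difference from wild type was -0.20 (SE 0.052, adjusted p = 0.0754).

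The abundant lumenal chaperones differed less. Hspa5, which encodes BiP, the master chaperone of the ER lumen, averaged 2.13 ± 0.057 (SD, n = 2) in wild type, 2.11 ± 0.013 in AA-supplemented and 1.98 ± 0.094 in AA-deficient knockouts. Its difference from wild type was -0.15 (SE 0.055, adjusted p = 0.185), and without AA-deficient array 2 it was -0.080. Hsp90b1, which encodes GRP94, was at -0.086 (SE 0.042). The lectin chaperones showed small differences, Calr (calreticulin) -0.028 (95% interval -0.15 to 0.094) and Canx (calnexin) 0.049 (95% interval -0.073 to 0.17). Dnajb9, which encodes ERdj4, an IRE1-binding co-chaperone, was at 1.553 on one AA-deficient array and 1.255 on the other, and its difference from wild type turned from -0.11 to 0.038 without AA-deficient array 2.

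**Figure D3:**
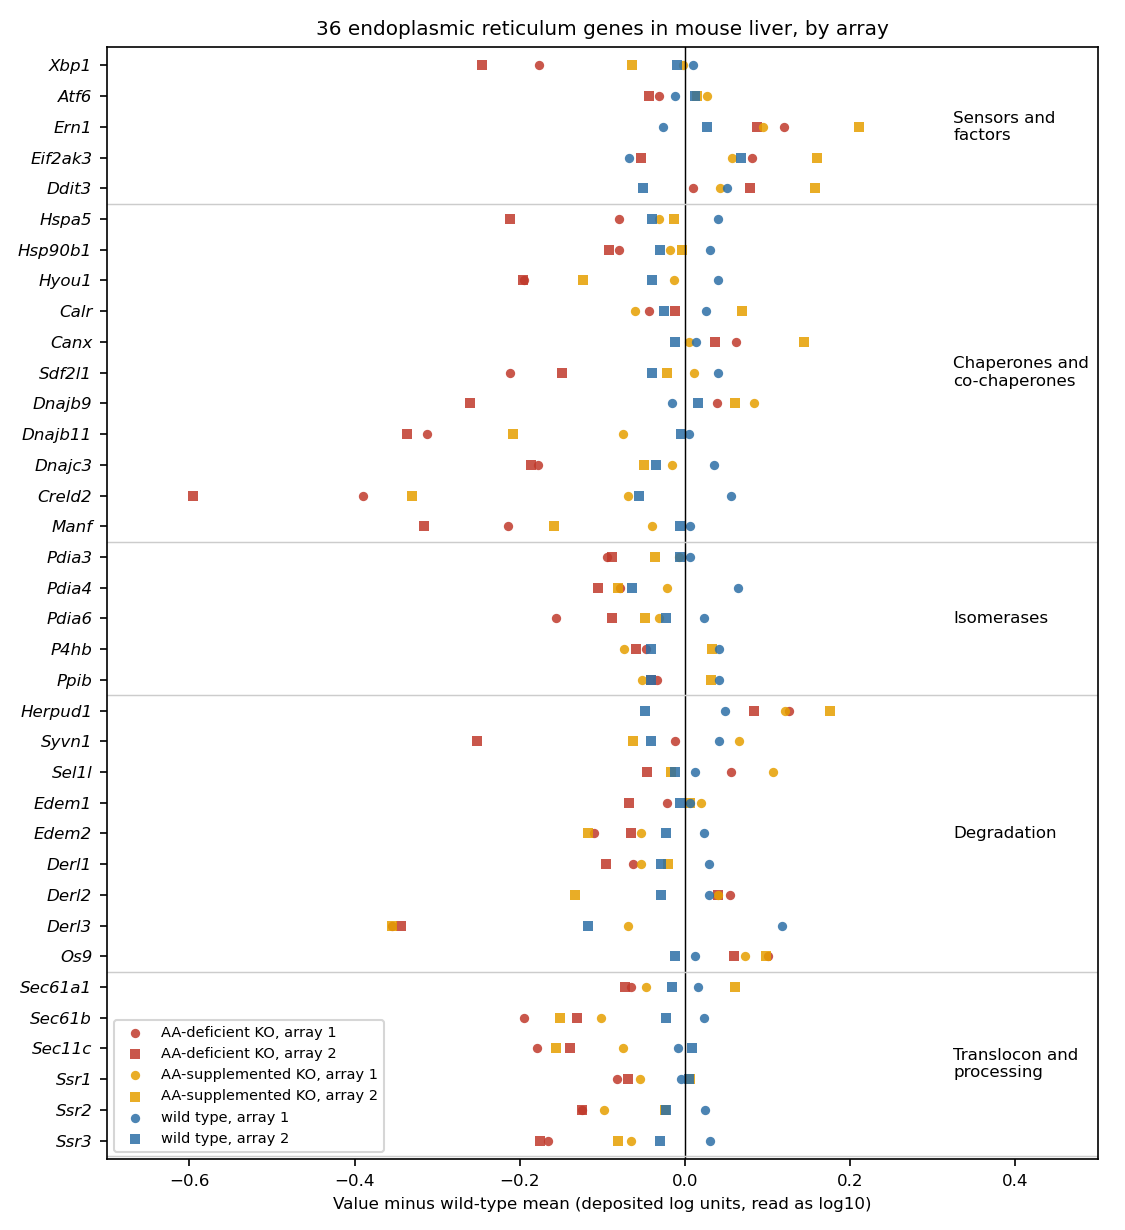
Value of each of the 36 members on each array minus its wild-type mean (horizontal axis, deposited log units read as log10), with members ordered by role; circles are array 1 and squares array 2 of each group. AA-deficient arrays (red) lie to the left of wild type for Creld2, Derl3, Dnajb11, Manf and Xbp1, and to the right of wild type for Herpud1, Ern1 and Os9.

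The isomerases and folding enzymes numbered 5. All 5 were lower in AA-deficient knockouts than in either other group, with a median of -0.091 against wild type and 0 past the threshold in limma, 2 of them lower at an unadjusted p under 0.05 (8.57% of all genes). Pdia6, a protein disulfide isomerase, averaged 1.495 ± 0.032 (SD, n = 2) in wild type, 1.455 ± 0.012 in AA-supplemented and 1.372 ± 0.048 in AA-deficient knockouts (difference from wild type -0.12, SE 0.044). Pdia3, the isomerase that works with calnexin and calreticulin, was at -0.091 (SE 0.039). P4hb, which encodes protein disulfide isomerase and is also a subunit of collagen prolyl hydroxylase, an enzyme that needs AA, was at -0.054 (95% interval -0.17 to 0.065) against wild type and at -0.033 (95% interval -0.15 to 0.086) between the knockouts. The prolyl isomerase gene Ppib was at -0.037 (95% interval -0.15 to 0.075), and at 0.0043 without wild-type array 1. Pdia4 was at -0.092 in the probe set used and at -0.013 in its other probe set, and the former was -0.029 without wild-type array 1 and -0.16 without wild-type array 2.

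Genes of translocation and early processing, 6 members, were the other group that stood low. For all 6 the AA-deficient arrays lay below both wild-type arrays, as in 26.9% of all genes. Their median was -0.14, with 0 past the threshold in limma and 4 lower at an unadjusted p under 0.05 (8.57% of all genes). Ssr3, a subunit of the translocon-associated protein complex, was at 1.693 and 1.631 in wild type, 1.597 and 1.581 in AA-supplemented knockouts, and 1.496 and 1.487 in AA-deficient knockouts. These 3 groups were separate and in the order seen for Dnajb11, with a difference of -0.17 (SE 0.042, adjusted p = 0.0605 in limma) from wild type to AA-deficient knockouts. Ssr2 of the same complex was at -0.13 (SE 0.044) and Ssr1 at -0.076 (SE 0.042).

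Sec11c and Sec61b were low in both knockout groups. Sec11c, the catalytic subunit of signal peptidase, read 0.902 and 0.918 in wild type, 0.835 and 0.753 in AA-supplemented knockouts, and 0.730 and 0.771 in AA-deficient knockouts. Its differences from wild type were -0.16 (SE 0.045, adjusted p = 0.0916) without AA and -0.12 (SE 0.045, adjusted p = 0.425) with it. Sec61b, a subunit of the translocation channel, read 0.911 and 0.864 in wild type, 0.786 and 0.736 in AA-supplemented knockouts, and 0.693 and 0.756 in AA-deficient knockouts. For both genes the knockout groups overlapped each other and not wild type. The probe sets of Sec61b disagreed, which were at -0.16 (the one used), -0.011 and -0.23 for AA-deficient knockouts against wild type. The channel subunit gene Sec61a1 was at -0.069 (SE 0.048).

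Degradation genes, 9 members that recognise misfolded proteins and pass them out of the ER to the proteasome, were mixed. Against wild type 5 were lower and 4 higher in AA-deficient knockouts, with a median of -0.045 and 0 past the threshold in limma. At an unadjusted p under 0.05, 1 of 9 was lower, a share near the 8.57% of all genes. Derl3, a derlin known as an XBP1 target, was at 1.242 and 1.007 in wild type, 1.056 and 0.770 in AA-supplemented knockouts, and 0.769 and 0.781 in AA-deficient knockouts. Its difference from wild type was among the largest of the members at -0.35, but its error was too (SE 0.10, adjusted p = 0.0977), and without wild-type array 1 it was -0.23. The ubiquitin ligase gene Syvn1 (HRD1) was at -0.13, and at -0.012 without AA-deficient array 2.

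Herpud1, which encodes a membrane protein of the same degradation complex, was higher in both knockout groups than in wild type. It was at 1.876 and 1.780 in wild type, 1.950 and 2.004 in AA-supplemented knockouts, and 1.954 and 1.911 in AA-deficient knockouts. Every knockout array lay above wild type. Its differences from wild type were 0.15 (SE 0.049, adjusted p = 0.369) with AA and 0.10 (SE 0.049, adjusted p = 0.282) without, and neither passed. Os9, a lectin that delivers misfolded glycoproteins, was at 0.085 and 0.080 in the same order. Sel1l, the scaffold of the complex, was at 0.0047 (95% interval -0.13 to 0.13) and at -0.047 without AA-deficient array 1. Derl1 was at -0.079, Derl2 at 0.047, Edem1 at -0.045 and Edem2 at -0.088, the last of these mannosidase-like genes being as low in AA-supplemented knockouts (-0.085).

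Of the 5 sensors and transcription factors, Xbp1 and Atf6 were lower and the other 3 higher in AA-deficient knockouts than wild-type livers. The sign of Eif2ak3 turned to -0.054 without wild-type array 1, and that of Ddit3 to -0.0065 without wild-type array 2. Ern1, the gene of the sensor upstream of Xbp1 splicing, averaged 1.23 ± 0.038 (SD, n = 2) in wild type, 1.38 ± 0.082 in AA-supplemented and 1.33 ± 0.022 in AA-deficient knockouts. It was thus above wild type in both knockout groups, by 0.15 (SE 0.051, adjusted p = 0.374) with AA and by 0.10 (SE 0.051, adjusted p = 0.309) without, neither past the threshold. Eif2ak3, the PERK gene, was at 0.014 (95% interval -0.14 to 0.17), and Atf6 at -0.038 (95% interval -0.13 to 0.053), in AA-deficient knockouts against wild type. Ddit3, the pro-apoptotic factor CHOP, was the dimmest member, with a mean of 0.25 at the 34.2 percentile of all genes. It was at 0.044 (95% interval -0.088 to 0.18), and without background values its low signal cannot be separated from background.

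**Figure D4:**
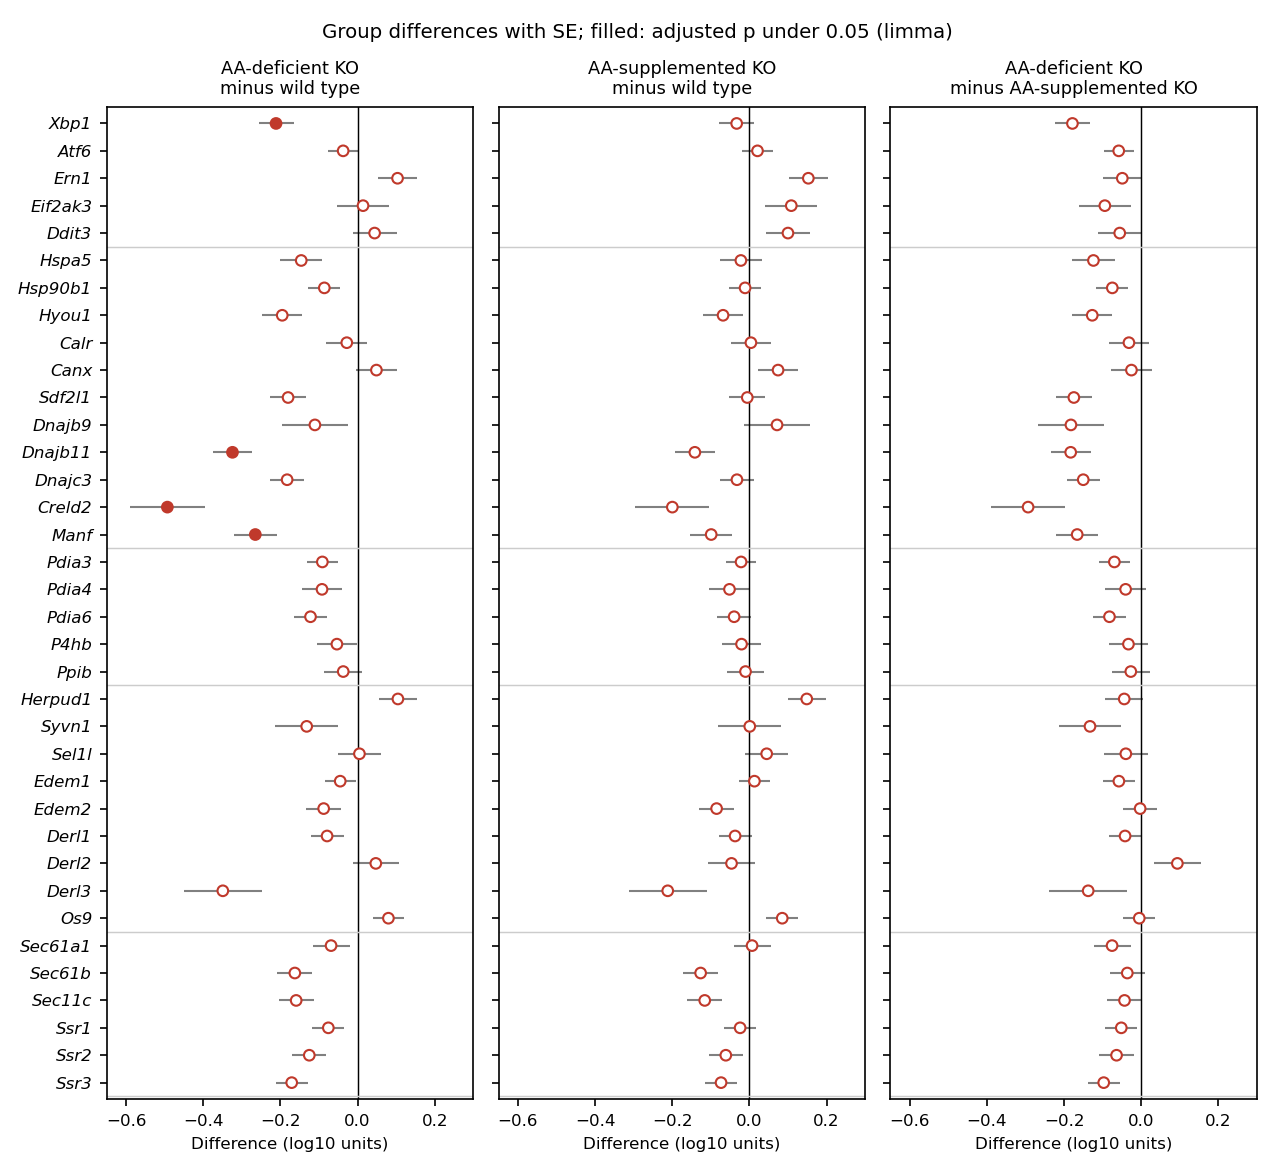
Difference between group means (horizontal axis, log10 units) with its SE from limma for each of the 36 members in 3 comparisons; filled points have an adjusted p under 0.05. The 4 filled points are Xbp1, Dnajb11, Creld2 and Manf in AA-deficient knockouts against wild type.

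Read against all genes tested, the members leaned low in AA-deficient knockouts. The list was chosen with earlier results of these data known, so the shares below describe these members and are not a test. In AA-deficient knockouts against wild type 24 of 36 were lower with no overlap of arrays (26.9% of all genes) and 5 higher (27.6%), and at an unadjusted p under 0.05, 15 were lower (8.57%) and 0 higher (11.8%). Between the knockouts 19 were lower with no overlap (17.5%) and 1, Derl2, higher (19.8%). At an unadjusted p under 0.05, 8 were lower (4.54%) and 0 higher (5.38%). In AA-supplemented knockouts against wild type 10 were lower with no overlap (18.8%) and 6 higher (19.8%), and at an unadjusted p under 0.05, 3 were lower (3.84%) and 2 higher (6.78%). The comparisons share arrays, so these counts are not independent of each other.

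The group means stood in the order wild type, AA-supplemented, AA-deficient for 22 of 36 members, against 23.5% of all genes tested. In 7 members, Ern1, Eif2ak3, Ddit3, Canx, Herpud1, Sel1l and Os9, wild type was lowest and AA-supplemented highest. Wild-type array 1 was the highest of the 6 arrays for 20 members, and AA-deficient array 2 the lowest for 18. The median of the 36 differences was -0.090 in AA-deficient knockouts against wild type (-0.072 without wild-type array 1), -0.061 between the knockouts and -0.022 in AA-supplemented knockouts against wild type. The last of these turned to 0.010 without wild-type array 1 and was -0.049 without wild-type array 2.

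Other genes of the pathway were taken from a list of 110, of which 104 had a probe set of their own and 100 were tested. In AA-deficient knockouts against wild type 75 of 100 were lower, with a median of -0.066. At an unadjusted p under 0.05 in limma, 27 were lower (8.57% of all genes) and 4 higher (11.8%). Past the threshold 5 fell (1.55% of all genes) and 0 rose (3.08%). They were Ube2g2, a ubiquitin-conjugating enzyme of ER degradation (difference -0.34, SE 0.049, adjusted p = 0.0162 in limma), Fkbp11, a prolyl isomerase of the secretory pathway (-0.30, SE 0.056), and P3h1, a collagen prolyl hydroxylase of the AA-dependent kind (-0.21, SE 0.044). The others were Mcfd2, a cargo receptor subunit for coagulation factors (-0.22, SE 0.041), and Sec23b, a coat subunit of vesicles that leave the ER (-0.21, SE 0.046). Between the knockouts 73 of 100 were lower (median -0.032), and 69 were in AA-supplemented knockouts against wild type (median -0.033). In those comparisons 0 passed in limma. At an unadjusted p under 0.05, 12 were lower (4.54% of all genes) and 2 higher (5.38%) between the knockouts, and 4 were lower (3.84%) and 2 higher (6.78%) in AA-supplemented knockouts against wild type. Without wild-type array 1, or without wild-type array 2, 1 gene of all those tested was lower past the threshold in AA-deficient knockouts against wild type, so the 5 calls need both wild-type arrays.

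By role, other translocation genes were lower for 20 of 25 (median -0.086), among them the signal recognition particle receptor genes Srpr (-0.15, SE 0.041) and Srprb (-0.19, SE 0.059). In the same comparison, AA-deficient knockouts against wild type, vesicle transport genes were lower for 16 of 18 (median -0.077) and folding genes for 23 of 27 (median -0.072). Other degradation genes were lower for 9 of 19 (median 0.0056). Other sensors and factors were lower for 7 of 11 (median -0.084). Among them the factor gene Creb3 was at -0.14 (SE 0.045) and Trib3, a pseudokinase induced by Atf4 and CHOP, was at 0.18 (SE 0.044, adjusted p = 0.0603).

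Targets of Atf4, the PERK branch, numbered 16 tested, 8 lower and 8 higher against wild type in AA-deficient knockouts (median -0.0017), with 0 past the threshold in limma and 5 higher (11.8% of all genes) and 2 lower (8.57%) at an unadjusted p under 0.05. The amino acid gene Asns was at -0.37 (SE 0.095, adjusted p = 0.0685) in AA-deficient and -0.33 (SE 0.095) in AA-supplemented knockouts. Its means in those knockouts, 0.174 and 0.215, lay near the filter on low values (0.185) and cannot be separated from background. Cth was at 0.17 (SE 0.042) in AA-deficient knockouts.

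Heat shock genes, for chaperones and helpers of the cytosol and mitochondria, were lower between the knockouts for 11 of 11 (median -0.13). There 0 passed in limma, and 6 were lower at an unadjusted p under 0.05 (4.54% of all genes). In AA-deficient knockouts against wild type 10 of 11 were lower (median -0.087). Hsp90aa1, a cytosolic chaperone gene (-0.23, SE 0.048), and Hspe1, a mitochondrial chaperonin gene (-0.20, SE 0.045), fell there, as did 1.55% of all genes. Against wild type 8 of 11 were higher in AA-supplemented knockouts (median 0.044), with 0 past the threshold in limma and 2 higher (6.78% of all genes) and 1 lower (3.84%) at an unadjusted p under 0.05.

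Acute phase genes, most of them for secreted plasma proteins and some for signalling, membrane or metal-binding proteins of the same response, were lower between the knockouts for 26 of 26 (median -0.18). Steap4, a membrane metalloreductase gene, fell there (-0.62, SE 0.079, adjusted p = 0.0405 in limma), and 15 were lower at an unadjusted p under 0.05 (4.54% of all genes). The members, at 35 of 36 (28 without AA-supplemented array 2) with a median of -0.061, were lower in the same comparison. In AA-deficient knockouts against wild type 21 of 26 acute phase genes were lower (median -0.099). Steap4 (-0.50, SE 0.079), Lcn2 (-0.69, SE 0.13) and Saa2 (-0.68, SE 0.14) fell there, as did 1.55% of all genes. AA-supplemented knockouts had 24 of 26 above wild type (median 0.079), with 0 past the threshold in limma and 4 higher at an unadjusted p under 0.05 (6.78% of all genes). The part of the acute phase and heat shock levels in the ER results was not tested.

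**Figure D5:**
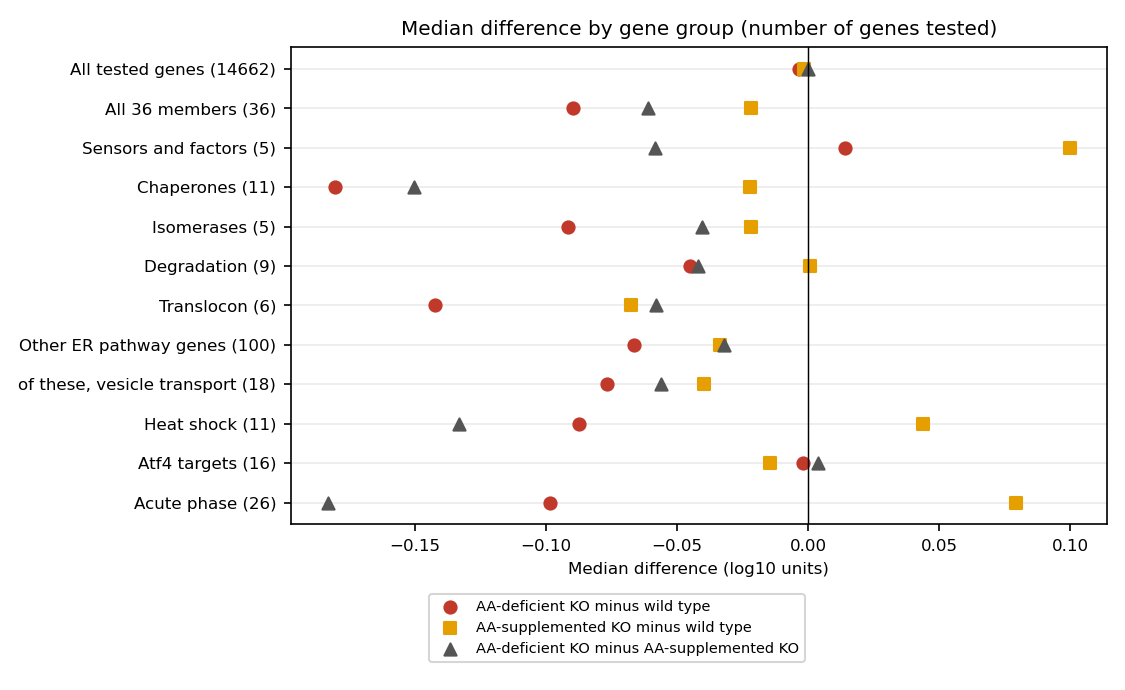
Median difference (horizontal axis, log10 units) of each gene group in the 3 comparisons, with the number of genes tested beside its name. Chaperones (-0.18) and translocon genes (-0.14) have the lowest medians in AA-deficient knockouts against wild type (circles), acute phase genes (-0.18) have the lowest between the knockouts (triangles), and all tested genes lie near 0.

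The labels were checked on Rgn, the SMP30/GNL gene, which averaged 2.03 in wild type, 0.24 in AA-supplemented and 0.26 in AA-deficient knockouts (adjusted p = 8.98e-05 in limma for the last against the first). Gulo, the gene of the final enzyme of AA synthesis, averaged 1.99, 2.05 and 2.04 in the same order. Hepatocyte markers were high, with a median at the 99.8 percentile of all genes for the 8 of 10 listed genes measured. Their summed linear level was 1147 to 1163 in AA-deficient knockouts, 1035 to 1501 in AA-supplemented knockouts and 986 to 1145 in wild type, AA-supplemented array 2 being the high one. Endothelial markers, 10 of 10 measured, summed to 162 to 171, 151 to 152 and 157 to 166 in the order of the hepatocyte sums, macrophage markers (11 of 11) to 114 to 139, 106 to 130 and 110 to 115, and stellate markers (11 of 11) to 84.7 to 94.9, 70.4 to 90.1 and 88.0 to 97.8. Plasma and B cell markers (10 of 11) summed to 25.4 to 29.4, 23.91 to 23.95 and 27.3 to 28.6, T and NK cell markers (8 of 9) to 10.52 to 12.99, 10.6 to 11.3 and 10.6 to 11.2, and neutrophil markers (9 of 9) to 11.1 to 11.4, 13.5 to 15.8 and 13.7 to 14.4. Pancreatic acinar markers (9 of 11) summed to 12.34 to 13.03, 12.3 to 14.3 and 12.7 to 13.4, and cholangiocyte markers (6 of 7) to 10.5 to 12.3, 11.1 to 12.8 and 11.0 to 12.3. Of the last 5 lists 5, 5, 6, 5 and 2 genes lay below the filter on low values, and no detection calls tell which were absent. Stab2, an endothelial scavenger receptor gene, rose in AA-deficient knockouts against wild type (0.24, SE 0.045, adjusted p = 0.032 in limma), and the other markers had 0 past the threshold in that comparison. The part of these levels in the results was not tested.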

How the data were processed

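The deposited table held 1 value per probe set and array, read as log10, with no counts. The scale was read from its range (-0.58 to 2.51, a 1213-fold span as log10), and the base, software and normalisation were not given in the sources used here. Of 34760 probe sets, 30765 had values and 21161 had exactly 1 symbol in the platform annotation, which gave 19550 genes. Genes at or above the 25th percentile of the mean (14662) were tested on the values as deposited with limma 3.58.1 in R 4.3.3, all 6 arrays in 1 fit (3 residual and 4.89 prior degrees of freedom), two-sided, with Benjamini-Hochberg adjustment over all genes tested. Members and lists were chosen with earlier results of these data known. Members were all named, with per-array values for the 12 of smallest p, and genes of other lists were named if they passed, or else up to 2 of smallest p. In data simulated for AA-deficient knockouts against wild type the fit recovered 3.58% of genes changed 1.5-fold, 54.1% at 2-fold and 97.2% at 4-fold over 14662 genes. Each of 20 runs changed 200 genes, and 5.90% of calls were false. Fewer genes were changed there than were called in the data, so recovery in the data may differ. Motifs were searched with Python 3.11.15. Protein sequences were not used here. Alternatives covered the filter, normalisation, variance model, probe set choice, replicate block and leaving out each array.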

Additional observations from a re-analysis of the deposited data

How the results depend on the processing

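The number of members past the threshold in AA-deficient knockouts against wild type, 4 in limma, depended on the settings. It was 0 with no filter on low values (15 lower at an unadjusted p under 0.05 with the filter), 9 with genes at or above the 50th percentile, 11 with eBayes with a trend, 9 with a trend and robust, 11 with array weights, 7 with only the 4 arrays compared, and between 0 and 7 without single arrays, where a lone array was taken to vary like those of the other groups. Every member called under any of these settings was lower. The replicate block gave 2 (Creld2 and Dnajb11). No label says that replicate numbers pair the samples, so the fit without the block is the main one. Replicate differences correlated at 0.36 between AA-deficient knockouts and wild type, and at -0.37 and -0.28 for the other pairs of groups. With 2 arrays a group these values cannot settle whether samples were paired. Quantile normalisation and cyclic loess each called 5, with Xbp1 past neither. The other comparisons had 0 members past the threshold under every setting tried. Over all genes 227 were lower and 452 higher past the threshold in AA-deficient knockouts against wild type. These became 56 and 117 with no filter, 380 and 677 at the 50th percentile, 462 and 809 with a trend, 478 and 834 with a trend and robust, 493 and 851 with array weights, 372 and 659 with only the 4 arrays, and 57 and 106 with the replicate block. Without wild-type array 1 or 2 they were 1 and 0, without AA-deficient array 1 50 and 90, and without AA-deficient array 2 43 and 45. Between the knockouts, the 24 lower and 6 higher became 0 and 0 with no filter and 88 and 66 with a trend. Medians of members ranged without single arrays from -0.082 to -0.058 between the knockouts, from -0.11 to -0.072 for AA-deficient and from -0.049 to 0.010 for AA-supplemented knockouts against wild type, the last reversing to 0.010 without wild-type array 1. The cause was not tested. In data simulated with 200 changed genes, most changes of 1.5-fold were missed at this number of arrays.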
